A study of Homo sapiens with 16 samples.

Results

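Inflammatory cytokines and chemokines are secreted proteins by which a stressed or infected cell alerts its neighbours and draws in leukocytes. The genes described here are IL1A, IL1B, IL6 and LIF (interleukins and an interleukin-6 family cytokine), CXCL8, CXCL1, CXCL2 and CXCL10 (CXC chemokines), and CCL2 and CCL5 (CC chemokines). They were found by symbol, 10 of the 60669 genes in the deposited tables, and each symbol matched 1 gene. In the poly(A) libraries CXCL8, CCL5, IL1B and IL6 were higher in the cells labelled METTL3 knockout, while LIF and CCL2 did not pass the test. In the rRNA-depleted libraries LIF fell to about 32.5 from 100.3 TPM (a gene's share of a library's transcripts after division by its length), and CCL2 was read only in the libraries labelled knockout.

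The cells were HMC3, an established human line that the labels call microglial, with the genotype given as WT or METTL3 KO. METTL3 is the catalytic subunit of the enzyme that places N6-methyladenosine (m6A) on RNA, and the series is titled for cell death mediated by ZBP1, an innate sensor of unusual nucleic acid. Poly(A) RNA was made into Smart-seq2 libraries, 5 per genotype, and total RNA depleted of ribosomal RNA into libraries with a directional kit, 3 per genotype. The labels name no treatment, time point, passage or clone for either genotype, and nothing in them says that replicates were separate cultures, so p-values measure the spread between these libraries only. Values for single libraries were used here for the rRNA-depleted set; for the poly(A) set the authors' deposited table of 1 comparison was used, which holds no SD or per-library value.

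The rRNA-depleted libraries were shallow, between 266157 and 1267172 reads as recovered from the TPM values, and the libraries labelled knockout held 1038574, 1267172 and 512627 of these. Knockout libraries 1 and 2 differed by no more than sampling noise (chi-square 1.02 per degree of freedom over 10120 genes, p = 0.0650) and were averaged, leaving 3 wild-type and 2 knockout samples. METTL3 mRNA was not lower in the libraries labelled knockout, at 31.2, 31.6 and 25.4 TPM in wild type and 39.2, 40.0 and 42.7 TPM in knockout (limma log2 change 0.48, SE 0.19, adjusted p = 0.106, and two-sided exact permutation p = 0.2, n = 3 and 2, with 0.2 the smallest p this design allows). The authors' deposited table gave METTL3 a log2 fold change of 0.09 (adjusted p = 0.654). An mRNA level does not check a small frameshift deletion, so the groups are called by their labels throughout. Of 14 markers of microglia and macrophages 9 were listed at 0 in all 6 rRNA-depleted libraries, among them AIF1, CX3CR1, P2RY12, TMEM119, PTPRC and SPI1. The summed level of the 14 was 52.5 to 70.5 TPM in wild type and 68.8 to 92.4 TPM in knockout. Fibroblast and pericyte markers, 10 genes with 1 at 0, summed to 11650 to 14080 TPM in wild type and 5627 to 5729 TPM in knockout. They did not move one way: COL1A1 went from 9612 to 11990 TPM in wild type to 749 to 865 TPM in knockout, while VIM went from 446 to 521 TPM up to 2157 to 2306 TPM, FN1 from 803 to 871 TPM up to 2168 to 2237 TPM, and THY1 from 121 to 131 TPM up to 248 to 270 TPM. Of the lymphocyte markers, 5 of 6 were at 0. Epithelial keratins KRT18 and KRT8 with EPCAM and CDH1 summed to 730 to 804 TPM in wild type and 334 to 340 TPM in knockout. Most of that sum was KRT18, at 688 to 740 TPM in wild type and 321 to 327 TPM in knockout. EPCAM reached at most 2.812 TPM and CDH1 at most 1.045 TPM in any library. These shifts ran alongside the cytokine differences below, and their part in them was not tested. In RNA from whole cultures, fewer cells making a transcript and less of it per cell cannot be told apart.

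Cytokine genes are held low in resting cells at several levels. Transcription starts when NF-kB, AP-1, interferon regulatory factors and STAT proteins reach their promoters, usually downstream of Toll-like receptors, nucleic acid sensors or interleukin-1 itself. The mRNAs are then short-lived, since AU-rich elements after the stop codon recruit decay proteins such as ZFP36 (tristetraprolin), and m6A is one further mark that can shorten an mRNA's life.

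The promoters of CXCL8, IL6, CXCL1 and CXCL2 are shown because they share one kind of site. Each line is the 140 bases before the RefSeq start (GRCh38.p14), 5′ to 3′ on the gene's strand, with matches to GGNNNTTCC, the core of an NF-kB site, on either strand in capitals.
CXCL8: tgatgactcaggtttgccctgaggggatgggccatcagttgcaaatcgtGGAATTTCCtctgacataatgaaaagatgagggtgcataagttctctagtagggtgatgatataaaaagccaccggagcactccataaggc
IL6: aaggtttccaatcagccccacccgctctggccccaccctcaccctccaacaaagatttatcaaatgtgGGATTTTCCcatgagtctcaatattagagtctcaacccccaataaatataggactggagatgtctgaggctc
CXCL1: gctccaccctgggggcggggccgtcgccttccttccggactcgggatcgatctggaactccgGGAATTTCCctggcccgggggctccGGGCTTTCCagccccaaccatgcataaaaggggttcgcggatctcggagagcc
CXCL2: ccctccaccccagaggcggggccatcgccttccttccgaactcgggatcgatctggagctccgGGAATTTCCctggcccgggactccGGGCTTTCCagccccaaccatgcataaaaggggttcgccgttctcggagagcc
These windows lie at chr4:73740429-73740568 (CXCL8, plus strand), chr7:22727060-22727199 (IL6, plus), chr4:73869253-73869392 (CXCL1, plus) and chr4:74099196-74099335 (CXCL2, minus). The CXCL8 match runs from -91 to -83 and the IL6 match from -72 to -64 relative to the start. CXCL1 and CXCL2 each hold a pair of matches, with the inner one at -53 to -45 in both. CXCL8 also holds TGACTCA, a match to the AP-1 motif TGANTCA, at -137 to -131, and TATAAA at -31 to -26. Over the RefSeq windows of 250 bases before to 50 after the start, 7 of the 10 genes had an entry and 5 of these held GGNNNTTCC, the other being CXCL10 with 3 matches. IL1A and IL1B held none. The same motif was present in the windows of 23.5% of 27305 genes (20.1% of 35116 windows), and over windows TGANTCA in 7.71% and TATAAA in 11.5%. The motifs were chosen after the windows had been looked at, and a match describes letters only.

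The 3′ ends of the same mRNAs are shown for their AU-rich stretches, the feature by which these transcripts are best known in mRNA decay. Each line is the 30 bases after the stop codon that are richest in ATTTA, from GENCODE 29 on GRCh38, with each ATTTA in capitals.
CXCL8: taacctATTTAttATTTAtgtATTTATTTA
CXCL2: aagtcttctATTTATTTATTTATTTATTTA
CXCL1: cttaggagaagtcttctATTTATTTATTTA
IL1B: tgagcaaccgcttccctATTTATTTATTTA
IL6: ttttaattatttttaATTTAttaatATTTA
LIF: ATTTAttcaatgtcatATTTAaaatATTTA
They lie at chr4:73743108-73743137 (CXCL8), chr4:74097590-74097619 (CXCL2), chr4:73870665-73870694 (CXCL1), chr2:112830003-112830032 (IL1B), chr7:22731697-22731726 (IL6) and chr22:30240522-30240551 (LIF). Over everything after the stop codon, IL6 held 6 ATTTA (14.0 per 1000 bases), CXCL2 10 (13.9), IL1B 6 (9.84), CXCL8 9 (7.19), CXCL1 5 (7.08), IL1A 5 (4.34), CCL2 1 (2.66), LIF 7 (2.19), CXCL10 1 (1.23) and CCL5 none. The median of 11546 genes was 1.56 per 1000 bases and 31.6% of them held none, so 8 of the 10 lay above the median, as the plot of pentamer density shows. GGACT, a common form of the m6A consensus, was counted over the whole transcript and not only after the stop codon. It occurred 11 times in LIF, 4 times in IL1B, 1 time each in IL6, CXCL2 and CXCL10, and in none of the others. No m6A measurement was used here, so these are sequence counts and not methylated sites.

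**Figure D1:**
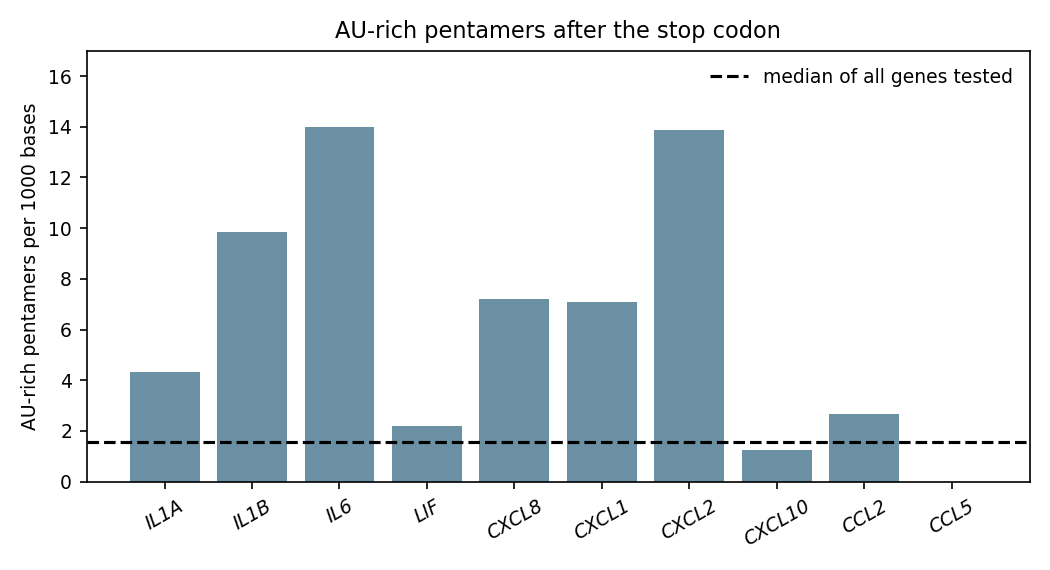
Number of ATTTA pentamers per 1000 bases after the stop codon (vertical axis) for each of the 10 genes, as bars from 0, with the dashed line at the median of 11546 genes (1.56). IL6 and CXCL2 stand highest at 14.0 and 13.9, and CCL5 has none.

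In the poly(A) libraries 8 of the 10 genes have an adjusted p in the authors' deposited table, and 4 of the 8 passed 0.05 with a positive log2 fold change, taken as higher in knockout. Over all 14009 genes with an adjusted p in the authors' deposited table, 9.55% passed upwards and 10.3% downwards; 0 of the 8 passed downwards. The median log2 fold change of the 8 was 1.26, against 0.02 over the 14009 genes with an adjusted p in the authors' deposited table. The mean normalized counts of the 8 over the 10 libraries ran from 1.02 to 30.6, LIF and CCL2 alone lying above the median of 26.2 over all genes with an adjusted p in the authors' deposited table. That table does not state which genotype is the numerator, and with wild type as numerator each direction given from it would be opposite.

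Among the interleukins, IL1B (chr2:112829751-112836903, minus strand), the secreted pyrogen that must be cleaved by caspase-1, had a mean normalized count of 5.08 and a log2 fold change of 1.85 (SE 0.61, adjusted p = 0.0164) in the authors' deposited table. That corresponds to 3.60-fold, with a 95% interval of 1.57 to 8.23 computed from the authors' deposited table's own SE. IL6 (chr7:22725884-22732002, plus strand), the inducer of the hepatic acute phase response, had a mean count of 6.71 and a log2 fold change of 1.41 (SE 0.50, adjusted p = 0.0291), or 2.66-fold with an interval of 1.34 to 5.26, in the authors' deposited table. IL1A (chr2:112773915-112784590, minus strand), the cell-bound alarmin next to IL1B, had a mean count of 0.794 in the authors' deposited table, too low for an adjusted p. LIF (chr22:30240447-30246851, minus strand), which signals through gp130 as IL6 does, had a mean count of 29.6 and a log2 fold change of -0.06 (SE 0.23, adjusted p = 0.902, interval -0.50 to 0.39) in the authors' deposited table. The LIF interval excludes a change of the size seen for IL1B.

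Among the chemokines, CXCL8 (chr4:73740506-73743716, plus strand), the main attractant of human neutrophils, had the smallest adjusted p of the 10. Its mean count was 14.3 and its log2 fold change 2.57 (SE 0.40, adjusted p = 5.47e-09) in the authors' deposited table, which is 5.93-fold with an interval of 3.46 to 10.2. CCL5 (chr17:35871491-35880793, minus strand), which draws T cells and monocytes, had the highest fold change. Its mean count was 10.2 and its log2 fold change was 3.27 by the authors' deposited table (SE 0.57, adjusted p = 4.64e-07), or 9.63-fold with an interval of 4.43 to 21.0, the 39th highest of the 14009 genes. The intervals of CXCL8 and CCL5 overlap, so their order was not resolved. CXCL1 (chr4:73869393-73871242, plus strand), a ligand of CXCR2, had a mean count of 6.95 and a log2 fold change of 1.102 (SE 0.45, adjusted p = 0.0670) in the authors' deposited table and did not pass. CCL2 (chr17:34255218-34257203, plus strand), the monocyte attractant that acts on CCR2, had a mean count of 30.6 and a log2 fold change of -0.03 (SE 0.29, adjusted p = 0.964, interval -0.60 to 0.54) in the authors' deposited table. CXCL2 (chr4:74097035-74099293, minus strand) had a mean count of 1.02 and a log2 fold change of -0.21 with an SE of 1.30 in the authors' deposited table, an interval too wide to place it. CXCL10 (chr4:76021117-76023497, minus strand), an interferon-induced attractant of T cells, had a mean count of 0.373 and no adjusted p in the authors' deposited table.

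**Figure D2:**
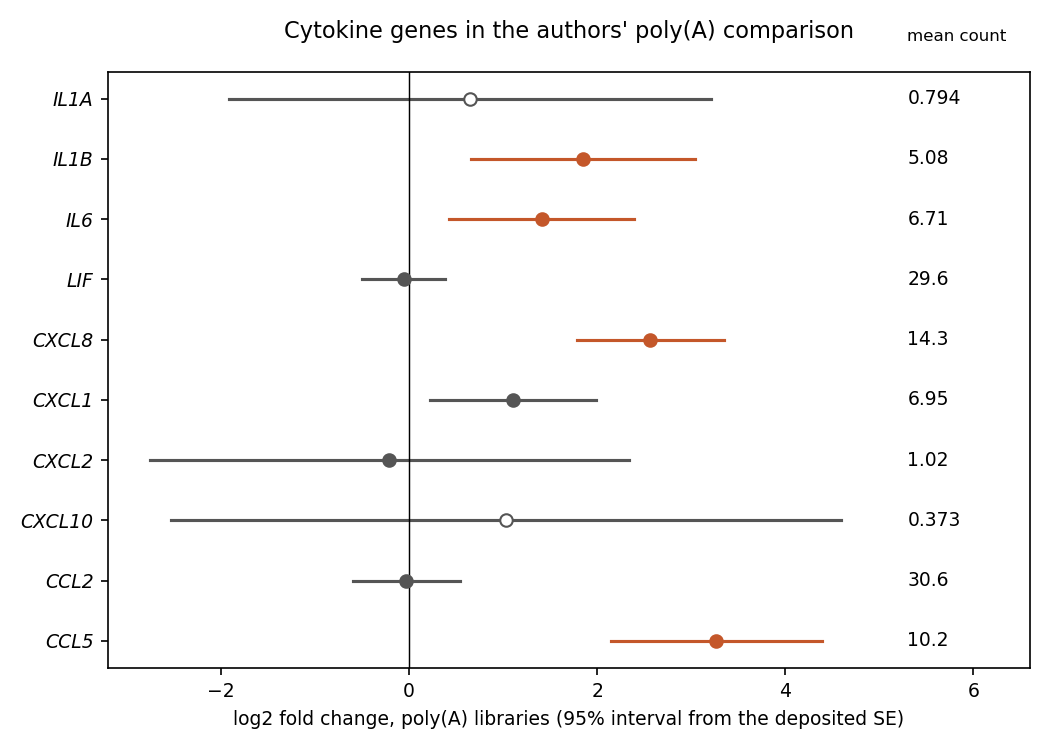
Log2 fold change (horizontal axis) of the 10 genes in the authors' deposited table of the poly(A) libraries, with 95% intervals from its SE; orange marks adjusted p under 0.05, open points have no adjusted p, and the mean normalized count stands at the right. CCL5, CXCL8, IL1B and IL6 lie above 0 with their intervals, as does CXCL1, which missed the adjusted threshold, while LIF and CCL2 centre on 0.

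In the rRNA-depleted libraries LIF had the most reads of the 10 genes. Its level was 102, 104 and 95.03 TPM in wild-type libraries 1 to 3, from 57, 40 and 63 reads, against 31.2, 40.0 and 29.3 TPM in knockout libraries 1 to 3, from 37, 58 and 18 reads. Every knockout library lay below every wild-type library. The mean was 100.3 ± 4.78 TPM in wild type (SD, n = 3) and 32.5 ± 4.49 TPM in knockout (SD, n = 2), a limma log2 change of -1.60 (SE 0.15, adjusted p = 0.00236) on the log2(TPM + 1) scale. Relative to the median of all genes tested, which was 0.41, the change was -2.02. The pooled reads per depth gave a knockout-to-wild-type ratio of 0.349 with a counting interval of 0.272 to 0.447. Over 15 alternative settings of the limma test the LIF change ran from -1.95 to -1.07 and the adjusted p from 2.92e-09 to 0.0152. The smallest change came when the trend with GC content was removed, LIF having 56.9% GC. Among 1774 genes within 2 points of that GC content the median log2 change was -0.01, with 10th and 90th percentiles of -1.75 and 1.44.

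Part of the LIF locus is shared with antisense genes. LIF-AS2 covers 175 and LIF-AS1 covers 92 of the 3969 exon bases of LIF, and whether the counting used strand is not given in the sources used here. LIF-AS2 held 3, 4 and 1 reads in wild type (26.8, 52.1 and 7.54 TPM) and 2, 0 and 0 reads in knockout (8.44, 0 and 0 TPM), with a limma log2 change of -3.35 and adjusted p = 0.0608. LIF itself held 160 and 113 reads.

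CCL2 had no read in any wild-type library, where 3 reads would have been 10.7, 15.6 and 9.04 TPM. In the libraries labelled knockout it was read 13, 14 and 8 times, at 21.9, 19.3 and 26.0 TPM, and all 3 lay above those limits. At the knockout mean of 23.3 ± 3.81 TPM (SD, n = 2) the wild-type libraries would have held 6.54, 4.48 and 7.74 reads, against 0 seen in each. Taken against 3 reads in each wild-type library, CCL2 was at least 1.98-fold higher in knockout. The limma log2 change was 4.595 (SE 0.41, adjusted p = 0.00217), a size that depends on the pseudocount, since it ran from 2.50 to 7.86 over 15 alternatives while the adjusted p ran from 1.67e-05 to 0.0106. The GENCODE exons of CCL2, taken over all its transcripts, cover 1986 bases, the whole span of the gene, so reads from introns cannot be separated from reads of mature mRNA here.

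The other genes rested on a handful of reads. IL6 was read 3, 0 and 5 times in wild type (10.3, 0 and 14.5 TPM) and 5, 7 and 6 times in knockout (8.10, 9.27 and 18.7 TPM), and the groups overlapped. The IL6 log2 change was 1.31 (SE 1.29, limma adjusted p = 0.469), and the read ratio of 1.11 had a counting interval of 0.461 to 2.96. Without wild-type library 2 the IL6 change was 0.07. The antisense gene IL6-AS1 covers 428 of the 2069 exon bases of IL6 and held no wild-type read and 0, 2 and 1 reads in knockout. CCL5 was read 1, 0 and 0 times in wild type (4.68, 0 and 0 TPM) and 1, 4 and 1 times in knockout (2.22, 7.25 and 4.27 TPM), again with overlap. Its read ratio of 2.97 had a counting interval of 0.360 to 137, and its limma adjusted p was 0.216, or 0.0265 without wild-type library 1. The 9.63-fold difference of CCL5 in the authors' deposited table lies inside that interval.

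The CXCR2 ligands had no wild-type read at all. CXCL8 was at 0 in wild type and at 2.95, 2.41 and 5.68 TPM in knockout, 2 reads in each library. CXCL2 was at 0 in wild type and at 4.47, 3.65 and 4.31 TPM in knockout, from 2, 2 and 1 reads. CXCL1 was at 0 in wild type and at 0, 2.11 and 14.9 TPM in knockout, from 0, 1 and 3 reads, and was not tested. All of these lie at or under the limit of 3 reads in both groups, so no fold is given. At the knockout level the wild-type libraries would have held 1.34, 0.918 and 1.59 reads of CXCL8, so the absence there is within what the depth allows. The limma adjusted p of CXCL8 was 0.0138 and that of CXCL2 0.00772, but with the voom weights on recovered reads they were 0.284 and 0.422. CXCL8 also missed the threshold after quantile normalization (0.0858) and with the GC trend removed (0.102). CXCL1 and CXCL2 share 60 stretches of 50 bases (4.81% of those of CXCL1), and CXCL2 shares 139 (8.99%) with CXCL3, so a short read from there could belong to either gene. CXCL8 shares none with these.

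IL1A, IL1B and CXCL10 were listed at 0 in all 6 libraries. For IL1B, 3 reads would have been 6.86, 10.03 and 5.80 TPM in wild type and 3.25, 2.65 and 6.26 TPM in knockout, so lower levels were not detectable at this depth. The intervals and limits in reads cover counting error only.

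**Figure D3:**
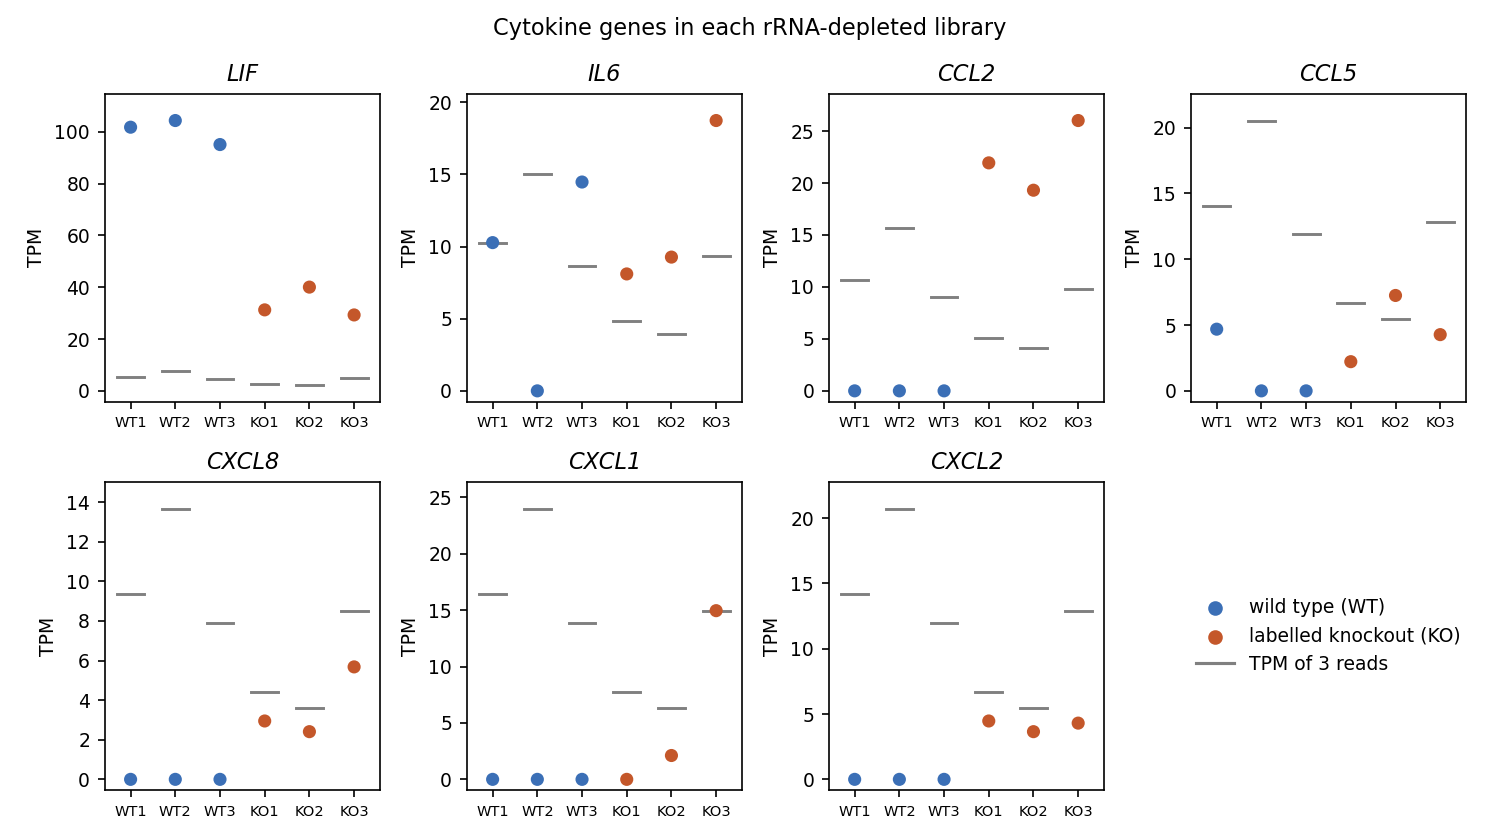
TPM (vertical axis) of the 7 genes with any read, in each of the 6 rRNA-depleted libraries (blue wild type, orange labelled knockout), with a grey bar at the TPM that 3 reads would give. LIF lies lower in all 3 knockout libraries, CCL2 lies above its bars in knockout and at 0 in wild type, and CXCL8, CXCL1 and CXCL2 stay at or under their bars.

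Counted over the whole table, 6 of the 10 genes entered the limma test, with 3 higher and 1 lower, where 22.9% of 14789 genes were higher and 12.4% lower. CCL2, CXCL8 and CXCL2 passed the filter of 1 TPM in 3 libraries only through the libraries labelled knockout, so their count carries no weight of its own. Among all called genes 64.8% were higher in knockout, a share that was 48.6% with median ratio scaling, 52.05% after quantile normalization and 52.4% with voom. The summed level of the 10 genes was 117, 104 and 110 TPM in wild type and 70.9, 84.0 and 103 TPM in knockout. LIF supplied 94.7% of the 169 wild-type reads of the 10 genes and 60.4% of their 187 knockout reads.

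Both library types can be set side by side for 4 of the genes. For LIF the knockout-to-wild-type ratio of reads was 0.349 in the rRNA-depleted libraries, and 0.960-fold was the value in the authors' deposited table. CCL2 was at least 1.98-fold higher in the first and at 0.980-fold in the authors' deposited table, with an interval of 0.660 to 1.46 there. IL6 had a read ratio of 1.11 and 2.66-fold in the authors' deposited table, and the intervals overlapped. CCL5 had a read ratio of 2.97 and 9.63-fold in the authors' deposited table, again with overlapping intervals. Without per-library poly(A) values the difference between library types was not tested.

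**Figure D4:**
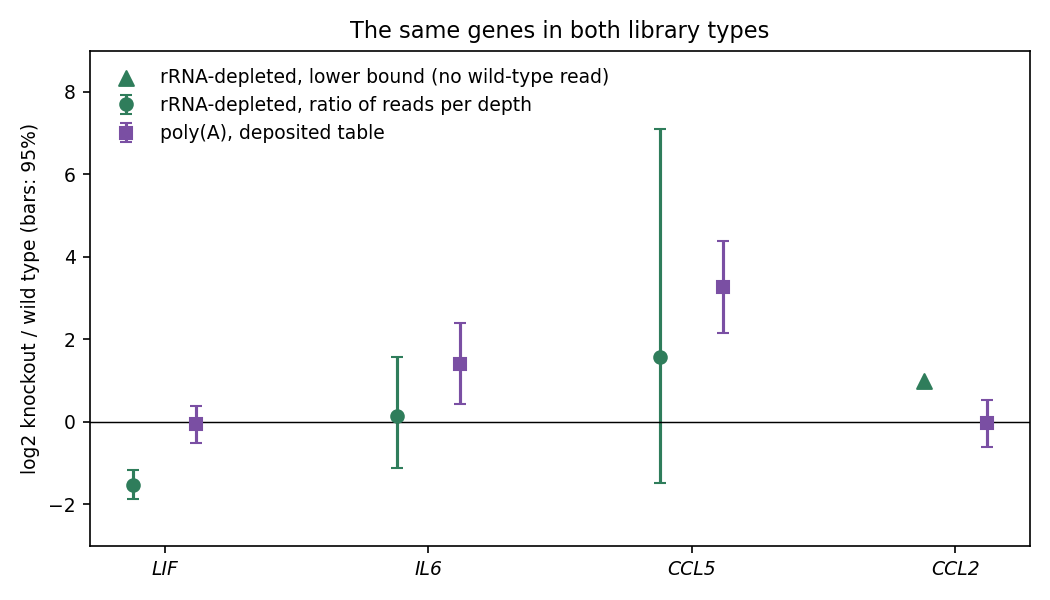
Log2 ratio of knockout to wild type (vertical axis) for 4 genes, as the ratio of reads per depth in the rRNA-depleted libraries (circles, with counting intervals; triangle, lower bound for CCL2) and as the fold change in the authors' deposited poly(A) table (squares, with intervals from its SE), bars being 95%. LIF lies below 0 and CCL2 above 0 in the rRNA-depleted libraries while both squares centre on 0, and the CCL5 bars are the longest.

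Of 30 other cytokine and chemokine genes, 15 were listed at 0 in all 6 libraries, including TNF, OSM, CSF2, CSF3, CXCL9, CXCL11, CCL3, CCL4 and CCL20. Of the 10 tested in the rRNA-depleted libraries, 2 were higher and 2 lower, where over all genes 22.9% were higher and 12.4% lower. The median of the 10 was 0.62 above that of all genes. Both higher genes, CCL11 and CXCL3, passed the filter only through the libraries labelled knockout, so neither the count nor the median carries weight. IL11, a gp130 cytokine of stromal cells, was the most abundant at 286 ± 24.7 TPM in wild type (SD, n = 3) and 196 ± 0.708 TPM in knockout (SD, n = 2), a log2 change of -0.54 (limma adjusted p = 0.0181). Removal of the GC trend took the IL11 change to -0.01 (limma adjusted p = 0.979). IL11 was the 1 gene of 14 that passed in the authors' deposited table, at 1.42 (adjusted p = 6.49e-05), opposite in sign. Of all genes with an adjusted p there, 9.55% passed upwards. CCL11 (eotaxin), a neighbour of CCL2 in the CC chemokine cluster, showed the same layout as CCL2, with no wild-type read and 7, 3 and 2 reads in knockout (21.75, 7.62 and 11.97 TPM; limma adjusted p = 0.00292). CCL11 stood at 0.48 (adjusted p = 0.448) in the authors' deposited table. CXCL3, named after its values were seen, had 0 wild-type reads and 4, 2 and 1 reads in knockout (limma adjusted p = 0.0110, and 0.214 with voom), and CXCL16 fell from 5 or fewer reads per library (limma adjusted p = 0.0233), a call that ended without the GC trend (0.0692).

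Of 22 receptors and transducers for these cytokines, 9 were at 0 in all 6 libraries, among them IL1RN, CXCR1, CXCR2, CXCR3, ACKR3, CCR2, CCR3 and ACKR2. These include the receptors by which leukocytes read CXCL8 (CXCR1, CXCR2), CXCL10 (CXCR3) and CCL2 (CCR2). Of the 10 tested, 1 was higher and 1 lower, with a median 0.20 above all genes. Over all genes 22.9% were higher and 12.4% lower. IL6ST, the gp130 chain shared by IL-6, LIF and IL-11, was at 18.3, 14.5 and 18.7 TPM in wild type and 72.5, 77.2 and 63.9 TPM in knockout, a log2 change of 1.96 (limma adjusted p = 0.00321). The authors' deposited table gave IL6ST 0.10 (adjusted p = 0.607). IRAK1, a kinase below the IL-1 receptor, changed by -0.45 (limma adjusted p = 0.020) and by 0.28 (limma adjusted p = 0.0829) with the GC trend removed, so its direction depended on that choice. Of the 10 with an adjusted p in the authors' deposited table, 2 passed, MYD88 at 0.81 (adjusted p = 1.47e-04) and TRAF6 at 0.68 (adjusted p = 9.35e-04), both adaptors of IL-1 and Toll-like receptor signalling. Over all genes with an adjusted p there, 9.55% passed upwards.

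Of 8 genes for the processing and release of IL-1, 5 were tested in the rRNA-depleted libraries, with 0 higher and 2 lower. Over all genes tested 22.9% were higher and 12.4% lower. The median of the 5 was -0.12 relative to all genes. GSDMD, whose cleaved product forms the pore through which IL-1 beta leaves, was at 101, 119 and 123 TPM in wild type and 22.3, 19.8 and 29.03 TPM in knockout, without overlap, a log2 change of -2.16 (limma adjusted p = 0.00223). GSDMD stood at -0.43 (adjusted p = 0.316) in the authors' deposited table. The inflammasome sensor NLRP1 changed by -0.83 (limma adjusted p = 0.0371), and without the GC trend its adjusted p was 0.413. The authors' deposited table gave NLRP1 0.72 (adjusted p = 0.0138), CASP4 1.51 (adjusted p = 0.0123) and CAPN2, a calpain subunit, -0.44 (adjusted p = 3.51e-07). Of 7 genes of this list with an adjusted p there, 2 passed upwards and 1 downwards, where over all genes 9.55% passed upwards and 10.3% downwards. CASP4 was named after its values were seen.

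All 19 transcription factors and regulators of cytokine promoters were tested, with 3 higher and 3 lower and a median of -0.09 relative to all genes. The shares over all genes were 22.9% higher and 12.4% lower. FOS, a partner in AP-1, was at 41.6, 38.4 and 35.1 TPM in wild type and 7.25, 6.77 and 5.98 TPM in knockout, a log2 change of -2.39 (limma adjusted p = 0.00261), and stood at -1.28 (adjusted p = 2.71e-06) in the authors' deposited table. RELA, the activating NF-kB subunit, rose from 24.7 to 58.3 TPM in the means (log2 change 1.22, limma adjusted p = 0.00945), but stood at -0.25 (adjusted p = 0.263) in the authors' deposited table. IRF3 changed by -1.14 (limma adjusted p = 0.00425) and by 0.29 (adjusted p = 0.295) in the authors' deposited table. JUN, at -0.86, and STAT2, at 0.55, were also called, and JUN was named after its values were seen. JUN missed the threshold with the GC trend removed (-0.33, limma adjusted p = 0.0544), and STAT2 with median ratio scaling (0.20, limma adjusted p = 0.324). Of 17 with an adjusted p in the authors' deposited table, 5 passed upwards and 1, FOS, downwards, where over all genes 9.55% passed upwards and 10.3% downwards. Those of the 17 upwards included STAT2 (0.62), NFKBIZ (1.30), IRF1 (0.76) and IRF7 (0.69), of which NFKBIZ, IRF1 and IRF7 were named after their values were seen.

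Proteins that bind cytokine mRNA and set its decay numbered 16, all tested, with 10 higher and 0 lower and a median 0.74 above all genes. The shares over all genes were 22.9% higher and 12.4% lower. With median ratio scaling 7 were higher and 3 lower, where over all genes 15.98% were higher and 16.9% lower. With quantile normalization or the GC trend removed 8 were higher and 3 lower. The shares over all genes were 17.93% and 16.51% with quantile normalization, and 21.06% and 9.42% with the GC trend removed. Without knockout library 3 the count was 3 higher and 0 lower, and without knockout libraries 1 and 2 it was 2 and 0, where over all genes 6.79% and 6.36% were higher. CNOT1, the scaffold of the deadenylase, was at 28.7, 20.0 and 24.8 TPM in wild type and 138, 140 and 111 TPM in knockout (log2 change 2.31, limma adjusted p = 0.00240). ZFP36L2, a binder of AU-rich elements, was at 30.7, 19.6 and 22.7 TPM against 102, 88.9 and 96.1 TPM (log2 change 1.96, limma adjusted p = 0.00392). ZFP36 itself rested on 1, 3 and 2 wild-type reads and 23, 33 and 9 in knockout (log2 change 2.15, limma adjusted p = 0.0447), and missed the threshold with median ratio scaling (0.0781). TIA1 changed by 3.47 (limma adjusted p = 0.0245) from 3, 0 and 4 wild-type reads. Of the 16, 1 passed upwards in the authors' deposited table, the m6A reader IGF2BP2 at 0.37 (adjusted p = 0.00442), and 1 downwards, HNRNPD at -0.32 (adjusted p = 0.00174). Over all genes with an adjusted p there, 9.55% passed upwards and 10.3% downwards. CNOT1, ZFP36L2, ZFP36 and TIA1 stood at 0.22, 0.36, -0.14 and 0.27 in the authors' deposited table and did not pass.

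Several of these companion calls needed the full set of libraries. Leaving out knockout library 3, or libraries 1 and 2 together, leaves 1 knockout sample, which is then assumed to vary like the wild type. IL11, CXCL16, IRAK1, NLRP1, RELA, STAT2, ZFP36, ZFP36L2 and TIA1 missed the threshold both without knockout library 3 and without knockout libraries 1 and 2, with limma adjusted p from 0.0516 (IRAK1) to 0.284 (ZFP36). NLRP1 and STAT2 also missed it without any 1 of the wild-type libraries, ZFP36 without wild-type library 1 or 3, and IRAK1 without wild-type library 1 (0.0526).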

How the data were processed

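The authors deposited TPM for 60669 genes in the 6 rRNA-depleted libraries and, for the poly(A) libraries, a table of 1 comparison. Per the file headers that table holds several values per gene: a mean normalized count (a signal averaged over libraries), a log2 fold change, its SE, a Wald score, and p-values, raw and adjusted. Trimmomatic, STAR, DESeq2 and hg38 are named in the submitters' processing notes, without versions or roles; the annotation and the use of strand in counting are not given in the sources used here. A positive deposited log2 fold change was taken as higher in knockout: this gave 91.5% sign agreement over the 177 genes called in both data sets and changed there by 1 or more (log2).

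Reads were recovered from TPM with GENCODE 29 exon lengths (56927 identifiers matched, 93.8%), and 90.9% of values above 0 came out whole within 0.02 reads. Knockout libraries 1 and 2 were averaged because a chi-square test, restricted to genes holding 10 or more reads, found no difference. TPM was tested as log2(TPM + 1) with limma 3.58.1 in R 4.3.3 (eBayes with trend, genotype as the term), over genes that reached 1 TPM in 3 or more libraries, with Benjamini-Hochberg adjustment at 0.05 over all genes, a step tested on simulated data first. Fold changes on this scale understate those of low genes. Counting intervals are exact at 95%. Other steps used Python 3.11.15, pandas 2.3.3, numpy 2.4.6, scipy 1.17.1 and matplotlib 3.10.9. Same-numbered libraries were not paired (correlations of deviations 0.020, -0.020 and 0.008). Promoter windows came from RefSeq.

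The members and the gene lists were chosen with earlier results of these data known. Genes named from the lists are up to 4 per list and library type with the largest change among those past 0.05 with a mean of at least 5 TPM or 50 normalized counts; others are marked where named. Alternatives covered the pseudocount, the filter, the scaling, weights on recovered reads, the threshold, the replicate block, 6 separate libraries and each library left out. The GC trend and a minimum of 5 mean reads were added after seeing the data. Values of some listed genes and markers are not reported here.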

Additional observations from a re-analysis of the deposited data

How the results depend on the processing

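LIF kept its direction and its call in the rRNA-depleted libraries under all 15 alternatives run. CCL2 also kept both under its 15, but it has no read and no spread in wild type. Its direction was therefore set in advance, and this agreement is no check on it. The alternatives without knockout library 3 or without libraries 1 and 2 leave 1 knockout sample, assumed to vary like the wild type. The number of genes called, 5220 with limma, ranged from 1663 to 5003 when a library was left out, lowest without knockout library 3 (1663) and without knockout libraries 1 and 2 (1739), where fewer samples were tested, and was 2242 at an adjusted p of 0.01. Of the 4 cytokine genes called, 2, LIF and CCL2, were called with a mean of at least 5 reads and the same 2 with voom. The median of the cytokine genes tested, relative to all genes, was 1.55. CCL2, CXCL8 and CXCL2 entered it only through the libraries labelled knockout, so neither its sign nor its size carries weight. It was 3.96 with a pseudocount of 0.1 TPM, 0.50 with 5 TPM, 1.91 without a filter and 1.28 after quantile normalization. It was 0.84 with a mean of at least 5 reads, 1.21 with the GC trend removed, 0.56 with voom, and 1.28 to 1.91 with a library left out. In the authors' deposited table the 2782 genes called became 1811 at 0.01 and 647 where a log2 change of 1 or more was also required, and the 4 cytokine genes became 2 at 0.01. METTL3 changed by 0.46 with 6 separate libraries (limma adjusted p = 0.0486). With the replicate block in a fit of 6 separate libraries 6037 genes and 4 cytokine genes were called; the numbers do not pair the libraries. Depth limits the rarer genes: CXCL8, CXCL1, CXCL2 and CCL5 rest on 7 or fewer reads over the 6 libraries each.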
